A study of Homo sapiens with 9 samples.

Results

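Transcripts that lie within or across other genes were followed in human liver cancer cells given THZ531, which binds covalently to the transcription kinases CDK12 and CDK13. The transcripts are the genes that the deposited table types as sense intronic, sense overlapping or TEC. A sense intronic transcript lies in an intron of a coding gene on the same strand. A sense overlapping transcript holds a coding gene within an intron on the same strand. TEC is a holding type, given to unspliced stretches with signs of a polyadenylated RNA and no settled gene model. Members were chosen by their counts: a gene of these types was kept if at least 10 counts were seen in at least 3 of the 9 libraries, leaving out names that begin with SNHG. The rule kept 240 of 1414 such genes, in a table of 32990 genes: 84 sense intronic, 42 sense overlapping and 114 TEC. Close to the limit, 48 genes reached 10 counts in exactly 3 libraries, with a median total of 76.5 counts over the 9 libraries, and 61 genes reached it in exactly 2, with a median total of 54.0. Genes are named as the table names them, and 3 of them by their Ensembl identifier.

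The libraries came from Hep3B, Huh7 and SNU449 cells, given 250 or 500 nM THZ531 or left untreated as control, with 1 library for each line and dose. All are established liver cancer lines. Polyadenylated RNA was sequenced with a stranded kit, per the labels. For the treated cells, one label states 48 h in every line, and the treatment protocol states 24 h for Hep3B and Huh7 against 48 h for SNU449. The response of SNU449 and its possibly longer exposure therefore cannot be told apart. No label says that libraries came from separate cultures, so p-values measure only the spread between these libraries. In tests within a line, the 250 and 500 nM libraries stand in as replicates of treatment. The spread there is the difference between these doses, pooled over the lines, SNU449 included.

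CDK12 pairs with cyclin K and phosphorylates the tail of RNA polymerase II, which helps the polymerase to travel through long genes. When it is blocked, polyadenylation signals inside introns are used more often in many cell types. Short RNAs that end early in a gene are normally removed by the nuclear RNA exosome. Signals of the form AATAAA or ATTAAA, placed shortly before the end of an RNA, mark where it is cut and given its poly(A) tail.

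The ends of 7 members that the results below turn on are printed to show whether such a signal lies there. Each sequence is the last 50 bases of the transcript in GENCODE release 29 on GRCh38, 5′ to 3′ on the strand of the transcript, and capitals mark AATAAA. The 6 that were higher than their coding gene come first, and the last was lower than its own.
MAGI1-IT1: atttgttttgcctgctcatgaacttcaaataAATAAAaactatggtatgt
CTB-31N19.3: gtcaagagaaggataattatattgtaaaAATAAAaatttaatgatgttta
CTD-2562G15.3: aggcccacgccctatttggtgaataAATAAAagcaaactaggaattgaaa
CTD-2033D15.2: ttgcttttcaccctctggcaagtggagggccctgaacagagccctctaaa
RP11-294J22.7: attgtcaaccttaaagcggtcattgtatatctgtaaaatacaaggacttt
RP11-331F4.5: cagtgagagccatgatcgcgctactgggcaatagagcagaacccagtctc
ENSG00000261061: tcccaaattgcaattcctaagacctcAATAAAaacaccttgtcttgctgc
These ends lie at chr3:65872815-65872864 on the minus strand for MAGI1-IT1, at chr16:21627520-21627569 on the plus strand for CTB-31N19.3 and at chr15:75452964-75453013 on the minus strand for CTD-2562G15.3. CTD-2033D15.2 ends at chr15:39587244-39587293 on the plus strand, RP11-294J22.7 at chr17:50724175-50724224 on the plus strand and RP11-331F4.5 at chr16:75245994-75246043 on the minus strand. ENSG00000261061 ends at chr16:81031436-81031485 on the plus strand. AATAAA lies 13, 16, 19 and 18 bases before the end in MAGI1-IT1, CTB-31N19.3, CTD-2562G15.3 and ENSG00000261061. The other 3 ends hold neither AATAAA nor ATTAAA. All 7 are single-exon transcripts in this annotation except MAGI1-IT1, which has 3 exons.

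The total count per library ran from 5701981 in Huh7 at 500 nM to 20657610 in the Hep3B control. Counts of mitochondrial genes took 8.14 to 13.1% of the 4 treated Hep3B and Huh7 libraries, 4.34 and 4.47% of the treated SNU449 libraries, and 3.85 to 4.32% of the 3 controls. This moves with the changes below, and its part in them was not tested beyond the fit without mitochondrial genes. The 7 hepatocyte-like markers summed to between 1.946e+04 and 8.245e+04 CPM, which are counts scaled to library size, in the Hep3B and Huh7 libraries and between 2.93 and 3.763 CPM in the SNU449 libraries, where TTR was at 0 in 2 of 3. In Huh7 this sum was 1.946e+04, 3.838e+04 and 8.245e+04 CPM at 0, 250 and 500 nM. In bulk samples, fewer cells of a kind and less RNA per cell cannot be told apart.

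As a class, with no count filter, the 1414 genes took a larger share of the treated Hep3B and Huh7 libraries than of their controls, and no such step appeared in SNU449. Summed over the class and divided by the library total, they held 625.6, 882.8 and 897.8 CPM at 0, 250 and 500 nM in Hep3B. In Huh7 they held 711.8, 854 and 1098 CPM at the same doses. In SNU449 they held 594.1, 613.2 and 570.7 CPM. The exact 95% binomial (Clopper-Pearson) interval was 880.6 to 915.2 in Hep3B at 500 nM and 614.8 to 636.5 in its control, and 1071 to 1126 in Huh7 at 500 nM and 698.1 to 725.7 in its control. On the TMM scaling used below for single members, the sums were 527.6, 994.2 and 1141 CPM in Hep3B, 567.7, 954.8 and 1690 CPM in Huh7 and 503.4, 514.1 and 491.2 CPM in SNU449, so the step is larger on that scale. The intervals cover counting error only, since 1 library stands for each line and dose.

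The 603 TEC genes made up most of the gain. They held 247.3, 435.3 and 459.6 CPM at 0, 250 and 500 nM in Hep3B, and 348, 435.2 and 606.1 CPM in Huh7. The 664 sense intronic genes held 248.7, 281.1 and 293.9 CPM in Hep3B and 204.8, 263 and 322.9 CPM in Huh7. The 147 sense overlapping genes held 129.6, 166.4 and 144.3 CPM in Hep3B and 159, 155.8 and 169.4 CPM in Huh7. In SNU449 the TEC genes stayed between 253.1 and 267 CPM over the 3 doses.

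**Figure D1:**
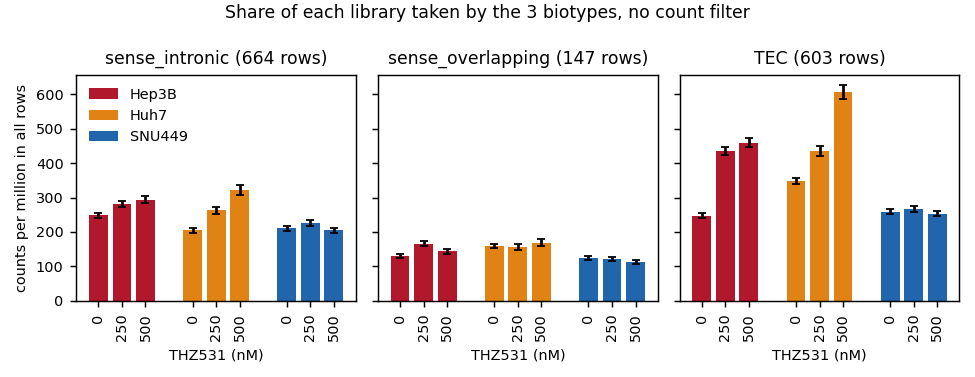
Summed CPM of all genes of each type (vertical axis, counts divided by the library total), by THZ531 dose (horizontal axis) and cell line; bars are single libraries and error bars are exact 95% binomial intervals. TEC bars reach 459.6 CPM in Hep3B and 606.1 in Huh7 at 500 nM, against 253.1 in SNU449.

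Single members were tested with the edgeR quasi-likelihood test on all 15479 genes that passed filterByExpr, a filter on low counts, with Benjamini-Hochberg adjustment over all of them at 0.05. Of the 240 members, 231 passed that filter. With the 250 and 500 nM libraries pooled against the control of the line, 65 members were higher and 14 lower in Hep3B, or 28.1% and 6.06% of those tested, where 9.82% and 6.72% of all tested genes were called. In Huh7, 75 members were higher and 7 lower, or 32.5% and 3.03%, where 13.3% and 6.04% of all tested genes were called. With total-count scaling 65 were higher and 29 lower in Hep3B, and 67 higher and 30 lower in Huh7. In SNU449 no member was called and 0% of all genes were, with 4 members at an unadjusted p under 0.05 and 0 called by DESeq2. Single libraries decide much of this: the Hep3B count was 0 without the Hep3B library at 250 nM and 5 without that at 500 nM, and the Huh7 count was 43 and 46 without these same libraries.

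The rule bears on these counts. A member could enter the set through its treated libraries alone, and 34 members did so, with 10 counts only in treated Hep3B or Huh7 libraries. Of the 59 members called higher in both Hep3B and Huh7 (7.18% of all tested genes were), 30 entered in that way and 15 had at least 10 counts in both control libraries of these lines. Among the 144 members with at least 10 counts in both controls, 140 were tested. Of these, 18 were higher and 13 lower in Hep3B, or 12.9% and 9.29% (9.82% and 6.72% of all tested genes). In Huh7 25 were higher and 7 lower, or 17.9% and 5% (13.3% and 6.04% of all tested genes). This subset leans the other way, because a minimum in the controls favours members that are high there. The 5 members called lower in both lines (2.61% of all tested genes) all had such control counts, and no member was called in opposite directions in the 2 lines.

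With the 3 lines taken as replicates of a dose, 39 members were higher and 1 lower at 500 nM, where 3.45% and 0.724% of all tested genes were called. With total-count scaling 51 were higher and 19 lower. At 250 nM 12 members were higher and none lower, where 1.06% and 0.155% of all tested genes were called. The rule bears on these counts as well. Of the higher members, 31 at 500 nM and 11 at 250 nM had fewer than 10 counts in a Hep3B or Huh7 control. Of the 140 tested with at least 10 in both, 8 were higher and 1 lower at 500 nM, or 5.71% and 0.714%. At 250 nM 1 of the 140 was higher, or 0.714%. Between 500 and 250 nM no member was called by edgeR (0% of all genes), with 7 members at an unadjusted p under 0.05 and 0 called by DESeq2. These counts depend on which line is in the fit: without SNU449 they were 121 at 500 nM and 93 at 250 nM, without Hep3B they were 2 and 0, and without Huh7 2 and 3.

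In single libraries, 102 and 103 members were at least 2-fold higher than their control in Hep3B at 250 and 500 nM, where 15.9% and 18.6% of all tested genes were. In Huh7 there were 98 and 118 (16% and 24% of all genes), and in SNU449 7 and 5 (0.756% and 0.956%). At least 2-fold lower were 26 and 45 members in Hep3B (11.1% and 13.1% of all genes), 39 and 49 in Huh7 (9.9% and 19.3%) and 4 and 8 in SNU449 (0.73% and 1.08%). All 4 treated Hep3B and Huh7 libraries lay above their controls for 115 members and below them for 56, where 26.7% and 30.2% of all tested genes did so. The choice of members bears on these counts too. Among the 144 with at least 10 counts in both controls, all 4 lay above for 49 and below for 50. At 250 and 500 nM, 37 and 37 of the 144 were at least 2-fold higher in Hep3B, and 22 and 40 lower. In Huh7 34 and 47 of them were higher, and 32 and 41 lower. The mean response of Hep3B and Huh7 differed from that of SNU449 for 11 members on the higher side and 2 on the lower side by edgeR, where 2.55% and 0.252% of all tested genes were called, and with total-count scaling for 4 and 2. Without the Hep3B library at 250 nM, or without that at 500 nM, 0 members differed, and without the Huh7 library at 250 nM 61 did.

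By type, 40 of 111 tested TEC members were higher in Hep3B and 45 in Huh7, or 36% and 40.5%. Of 79 sense intronic members 19 and 24 were (24.1% and 30.4%), and of 41 sense overlapping members 6 and 6 (14.6% in each line). Of all tested genes 9.82% and 13.3% were. The types entered the set differently: 20 TEC, 13 sense intronic and 1 sense overlapping members did so through treated Hep3B or Huh7 libraries alone. Among tested members with at least 10 counts in both controls, 10 and 12 of 59 TEC, 3 and 7 of 44 sense intronic and 5 and 6 of 37 sense overlapping members were higher in Hep3B and Huh7. The 14 members called lower in Hep3B were 9 TEC, 3 sense overlapping and 2 sense intronic genes. The median log2 ratio to the control, from CPM scaled with TMM factors and a prior count of 2, was 0.89 and 0.83 for TEC members in Hep3B at 250 and 500 nM, and 0.90 and 1.44 in Huh7. For sense overlapping members it was -0.39 and -0.52 in Hep3B and -0.24 and -0.50 in Huh7. Over all tested genes, such medians lay between -0.07 and 0.00. With at least 10 counts in both controls, the median of the mean ratio over the 4 treated libraries was -0.09 for TEC, 0.06 for sense intronic and -0.62 for sense overlapping members. The difference between types was not tested.

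**Figure D2:**
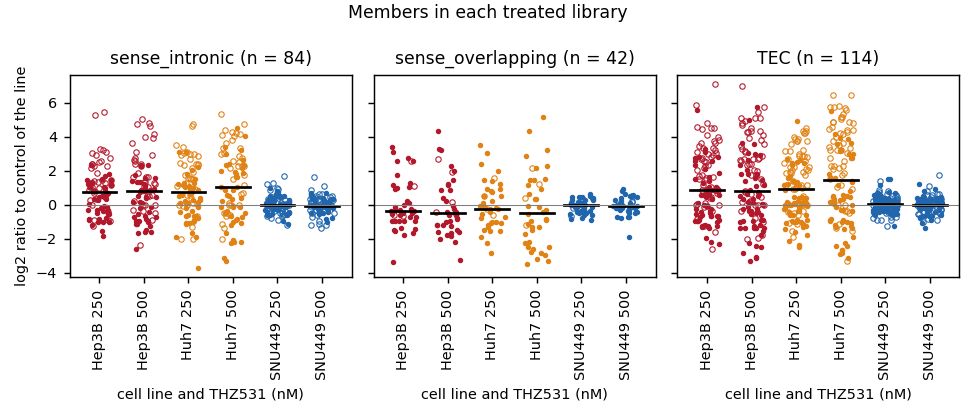
Log2 ratio of each member to the control of its line (vertical axis) in the 6 treated libraries (horizontal axis), by type; filled points have at least 10 counts in both the Hep3B and Huh7 controls, open points do not, and black bars are medians. Medians lie above 0 for sense intronic and TEC members in Hep3B and Huh7, below 0 for sense overlapping members there, and within 0.1 of 0 in SNU449.

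A scaling by total counts in place of TMM moved the median of all tested genes to -0.46 and -0.58 in the 250 and 500 nM libraries of Hep3B and to -0.48 and -0.95 in those of Huh7, and left it at 0 in SNU449. The ratios given here are relative to the TMM median.

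Members that rose from a measurable control level included abundant ones. CTB-129P6.7, a TEC gene whose 3′ end runs into APOC1, which encodes a lipoprotein component, had 12, 358 and 308 counts in Hep3B and 25, 351 and 252 counts in Huh7 at 0, 250 and 500 nM. In SNU449 it had 0, 4 and 2 counts. It thus stood far above its controls in all 4 treated hepatocyte-like libraries, and its fitted log2 change was 6.0 ± 0.53 (SE) in Hep3B and 5.35 ± 0.49 in Huh7 (edgeR quasi-likelihood, Benjamini-Hochberg adjusted p = 0.00069 and 0.00073).

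ENSG00000259623, a sense overlapping gene on chromosome 17 and the most abundant member with a mean of 26.4 CPM, had 208, 607 and 310 counts in Hep3B at 0, 250 and 500 nM, 148, 329 and 220 in Huh7, and 180, 166 and 204 in SNU449. Its log2 ratio was between 1.98 and 2.84 in the 4 treated Hep3B and Huh7 libraries and -0.01 and 0.05 in the treated SNU449 libraries. The ranges of the treated hepatocyte-like and the SNU449 ratios did not overlap. Its fitted change was 2.33 ± 0.39 in Hep3B and 2.64 ± 0.40 in Huh7 (edgeR, adjusted p = 0.0046 and 0.0026).

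CTA-941F9.10, a sense overlapping gene that starts ahead of ATXN10, had 34, 190 and 282 counts in Hep3B, 13, 75 and 112 in Huh7 and 15, 20 and 26 in SNU449 at the same doses. Its fitted change was 4.07 ± 0.71 in Hep3B and 4.73 ± 0.78 in Huh7 (edgeR, adjusted p = 0.0051 and 0.0033). AP000892.6, a TEC gene on the strand opposite PCSK7, which encodes a proprotein convertase, had 8, 118 and 142 counts in Hep3B, 153, 239 and 291 in Huh7 and 58, 99 and 113 in SNU449. By edgeR it was called in both lines, at 5.25 ± 0.73 in Hep3B (adjusted p = 0.0022) and at 2.68 ± 0.54 for Huh7 (adjusted p = 0.0077), and its SNU449 ratios of 0.85 and 0.81 were not past the test. AP000892.6 begins 185 bases after the end of TAGLN. Mean log2 ratios over the treated Hep3B and Huh7 libraries were 3.64 for the member and 2.26 for TAGLN.

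AC009303.2 and RP11-69M1.6, both TEC genes with no coding gene at their place, also rose in both lines. AC009303.2 had 20, 77 and 65 counts in Hep3B and 18, 56 and 76 in Huh7 at 0, 250 and 500 nM. RP11-69M1.6 had 20, 66 and 103 in Hep3B and 14, 37 and 40 in Huh7. Their mean log2 ratios over the 4 treated libraries were 3.15 ± 0.69 and 3.04 ± 0.62 (SD). RP11-178H8.7, a TEC gene facing KIAA1731 on the other strand, had 49, 216 and 243 counts in Hep3B, 32, 78 and 104 in Huh7 and 24, 20 and 13 in SNU449, and was called in Hep3B and Huh7 (3.48 ± 0.62 and 3.38 ± 0.65, adjusted p = 0.0057 and 0.0061, edgeR).

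RP11-182L21.5, a sense intronic gene, had 48, 126 and 95 counts in Hep3B and 10, 45 and 42 in Huh7, with a mean log2 ratio of 2.96 ± 0.81. AC006538.1, also sense intronic, had 31, 43 and 32 counts in Hep3B and 11, 15 and 17 in Huh7 and was called in Huh7 (2.32 ± 0.71, adjusted p = 0.041) and not in Hep3B (adjusted p = 0.11) by edgeR. RP11-182L21.5 and AC006538.1 have no coding gene at their place in the table, against their type. The gene that the table labels MIR4534 spans more than the microRNA, and most of it lies in POLR2F, which encodes a subunit of the RNA polymerases. POLR2F itself had 0 to 2 counts in every library, and how reads were divided between both genes was not tested. MIR4534 had 45, 139 and 164 counts in Hep3B and 27, 48 and 56 in Huh7. It was called higher in Hep3B (3.01 ± 0.57, adjusted p = 0.0069) and Huh7 (2.78 ± 0.60, adjusted p = 0.010) by edgeR.

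Another 23 members had 3 counts or fewer in both hepatocyte-like controls. The 4 of them with the largest total count are MAGI1-IT1, RP11-294J22.7, CTB-31N19.3 and RP11-82L18.2. MAGI1-IT1 had 2, 116 and 55 counts in Hep3B, 2, 47 and 37 in Huh7 and 2, 1 and 2 in SNU449 at 0, 250 and 500 nM. It was 73.9-fold higher at 500 nM in Hep3B (exact 95% interval 19.5 to 626) and 90.3-fold higher in Huh7 (23.3 to 773). CTB-31N19.3 had 2, 101 and 49 counts in Hep3B, 3, 61 and 18 in Huh7 and 0, 3 and 3 in SNU449. Its folds at 500 nM were 65.9 (17.3 to 559) in Hep3B and 29.3 (8.55 to 155) in Huh7. Both were near absent without the compound and in SNU449 at every dose. Both entered the set through treated libraries alone and are named for their low control counts. Their folds and intervals thus describe selected counts, and the intervals do not allow for that choice.

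RP11-294J22.7, a TEC gene near the start of LUC7L3, had 1, 47 and 88 counts in Hep3B, 0, 24 and 27 in Huh7 and 3, 2 and 4 in SNU449. In Huh7 it was at least 18.9-fold higher at 250 nM and at least 43.9-fold higher at 500 nM, taking 3 counts as the floor of the control library. RP11-294J22.7 was selected in the same way, through treated libraries alone. RP11-82L18.2, in SHC3, which encodes a signalling adaptor, entered through SNU449, where it had 72, 63 and 84 counts. It had 0 to 3 counts in every Hep3B and Huh7 library, so no shift of its own was detectable there at this depth. Beyond the naming rule, and picked after its values were seen, RP11-667F14.1 had 0, 233 and 165 counts in Hep3B, 4, 51 and 115 in Huh7 and 0, 1 and 3 in SNU449, at least 148-fold higher at 500 nM in Hep3B.

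Falls were fewer: 16 members were called lower in Hep3B or Huh7, and 15 of them had at least 10 counts in both controls. RP11-119F7.5, a sense overlapping gene, had 55, 1 and 1 counts in Hep3B, 16, 0 and 0 in Huh7 and 12, 12 and 11 in SNU449 at 0, 250 and 500 nM. It fell in Hep3B by 4.43 ± 0.80 on the log2 scale (edgeR, adjusted p = 0.0066). RP11-447D11.3, a TEC gene, had 51, 5 and 1 counts in Hep3B, 38, 2 and 1 in Huh7 and 36, 29 and 32 in SNU449. It fell by 2.84 ± 0.66 in Hep3B and by 2.95 ± 0.79 in Huh7 (edgeR, adjusted p = 0.016 and 0.024). In both genes all treated hepatocyte-like libraries lay below every other library.

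ENSG00000279348, a TEC gene with 138, 26 and 14 counts in Hep3B, 280, 26 and 6 in Huh7 and 59, 40 and 39 in SNU449, was the only member called lower at 500 nM over the 3 lines. It fell by 1.89 ± 0.47 on the log2 scale (edgeR, adjusted p = 0.042). RP1-228H13.5, a sense overlapping gene, had 86, 11 and 7 counts in Hep3B and 66, 9 and 1 in Huh7 and fell in both lines (edgeR, adjusted p = 0.030 and 0.035). RP11-57H14.4 had 155, 25 and 17 counts in Hep3B and 72, 14 and 1 in Huh7, a mean log2 ratio of -1.90 ± 0.98 (SD) that did not pass the edgeR test in either line (adjusted p = 0.053 and 0.084). RP11-395B7.7 had 571, 144 and 89 counts in Hep3B and was called lower there (-1.08 ± 0.31, adjusted p = 0.033, edgeR) and not in Huh7 (adjusted p = 0.49).

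RP3-368A4.5, a sense intronic gene, had 132, 43 and 17 counts in Hep3B, 31, 0 and 1 in Huh7 and 111, 137 and 126 in SNU449, and was called lower in Huh7 (edgeR, adjusted p = 0.020) and not in Hep3B (adjusted p = 0.20). CTC-523E23.3, a TEC gene, had 44, 3 and 2 counts in Hep3B and 16, 5 and 0 in Huh7 and was lower in Hep3B (-2.87 ± 0.81, adjusted p = 0.033, edgeR) and not called in Huh7 (adjusted p = 0.45). CTC-429P9.5, in an intron of SMIM7, had 31, 3 and 3 counts in Hep3B and 20, 5 and 0 in Huh7, a mean log2 ratio of -1.79 ± 1.02 (SD). It did not pass the low-count filter and was not tested.

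In SNU449 the 4 members with the smallest p were CTB-129P6.7, CTB-31N19.3, CTD-2562G15.3 and CTD-2231E14.2, each with an edgeR adjusted p of 1. CTD-2231E14.2 had 5, 26 and 36 counts in Hep3B, 7, 47 and 54 in Huh7, while SNU449 gave 1, 6 and 10. Each of the other three had at most 4 counts in any SNU449 library.

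Some abundant members did not pass the test in any line. RP11-159D12.8, a TEC gene, averaged 17.3 CPM and had a mean log2 ratio of 0.48 ± 0.39 (SD) over the 4 treated Hep3B and Huh7 libraries, or -0.13 with total-count scaling. MIR600HG, which overlaps the end of STRBP, averaged 9.34 CPM with a mean log2 ratio of -0.44 ± 0.48. CTD-3128G10.7, in an intron of the complement gene C3, had 534, 135 and 225 counts in Hep3B and at most 13 in any other library, with a mean log2 ratio of -0.10 ± 0.89.

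Each member was then set against the protein-coding gene at its place. On the same strand, 118 members overlapped a coding gene, and 8 more did so with no strand given for the member in the annotation. Another 18 overlapped a coding gene only on the opposite strand and 96 overlapped none. The 126 members on the same strand or with no strand given lie in 120 coding genes, of which KAT8, KCTD13, KLC1, NFE2L2, PAM16 and SMIM7 each hold 2 members. Of these members 114 lie wholly inside the coding gene and 97 overlap none of its exons. Reads of unspliced RNA of the coding gene cannot be told apart from those of a member on the same strand. By type, 70 of 84 sense intronic, 12 of 42 sense overlapping and 44 of 114 TEC members are among the 126. Most sense overlapping members and some sense intronic ones thus had no such coding gene at their place in the table, against their type. The overlap setting of the authors' counting is not given in the sources used here, and members on exons may share reads with the coding gene.

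The change of the member minus that of its coding gene was tested with limma over all 312 pairs of a noncoding gene and its coding gene, as the mean of the Hep3B and Huh7 responses. Among 117 member pairs tested, 50 members were higher and 5 lower relative to their coding gene after Benjamini-Hochberg adjustment, or 42.7% and 4.27%. Over all 312 pairs 44.9% and 6.41% were called, so the members' share was near that of noncoding genes in general. Control counts bear on these numbers too: of the 50 pairs with fewer than 10 counts of the member in a Hep3B or Huh7 control, 34 were higher, and of the 67 pairs with at least 10 in both, 16 were higher and 5 lower, with a median relative change of 0.30. By type, 30 of 65 sense intronic, 2 of 10 sense overlapping and 18 of 42 TEC members were higher. In Hep3B alone 28 were higher and 2 lower (26.3% and 2.88% of all pairs), in Huh7 37 and 2 (31.7% and 3.85%), and in SNU449 none (0%). Without the SNU449 library at 250 nM, 35 pairs were called in place of 55.

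Of the 50 members that were higher relative to their coding gene, 38 overlap no exon of it. This share is near that of all 117 tested pairs, where 91 members overlap no exon. Across the 117 pairs the ratio of the member and that of its coding gene had a Spearman rho of 0.225. This rho is across genes, which share libraries and are not independent replicates.

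**Figure D3:**
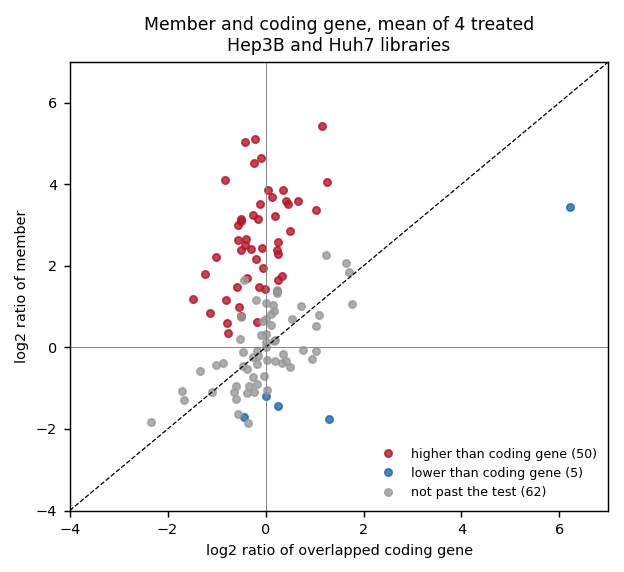
Mean log2 ratio to control over the 4 treated Hep3B and Huh7 libraries, for the member (vertical axis) and for its coding gene (horizontal axis); 1 point is 1 of 117 pairs, the dashed line marks equal change, and colours give the limma result. The 50 members above their coding gene lie mostly over coding ratios near 0, and the pair at the far right is RP11-196G18.22 with HIST2H2BE.

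MAGI1-IT1 lies in an intron of MAGI1, which encodes a scaffold protein of cell junctions. Against the member counts given above, MAGI1 had 58.2, 48.3 and 38.5 CPM in Hep3B at 0, 250 and 500 nM and 53.4, 44.0 and 37.2 CPM in Huh7. Its change relative to MAGI1 was 5.46 ± 0.44 on the log2 scale (limma, adjusted p = 0.00057). RP11-294J22.7 lies near the start of LUC7L3, which encodes a splicing factor. LUC7L3 had 154, 136 and 100 CPM in Hep3B and 89.5, 117 and 64.2 CPM in Huh7, and the member's change relative to it was 5.32 ± 0.72 (limma, adjusted p = 0.0017). MAGI1-IT1 and RP11-294J22.7 entered the set through treated Hep3B and Huh7 libraries alone. Their changes and p-values therefore rest on the counts that selected them and are not independent evidence of a rise.

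CTB-31N19.3 lies in an intron of METTL9, which encodes a histidine methyltransferase and had 128, 126 and 129 CPM in Hep3B and 50.4, 55.1 and 35.6 CPM in Huh7. Its change relative to METTL9 was 4.74 ± 0.41 (limma, adjusted p = 0.00062). CTD-2562G15.3, in an intron close to the start of the corepressor gene SIN3A, had 1, 15 and 24 counts in Hep3B, 2, 14 and 17 in Huh7 and 3, 0 and 0 in SNU449, with a relative change of 3.62 ± 0.67 (limma, adjusted p = 0.0046). Its counts are few, and the treated hepatocyte-like libraries lay above all others. CTB-31N19.3 and CTD-2562G15.3 also entered through treated libraries alone, so their p-values rest on the counts that selected them.

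CTA-941F9.10 moved against ATXN10, which had 164, 85.8 and 138 CPM in Hep3B and 81.3, 40.4 and 36.4 CPM in Huh7, with a relative change of 4.94 ± 0.48 (limma, adjusted p = 0.00085). RP11-298I3.3, a TEC gene in C14orf93, had 9, 101 and 93 counts in Hep3B, 4, 40 and 73 in Huh7 and 9, 9 and 4 in SNU449, where C14orf93 kept between 3.07 and 7.68 CPM in all 9 libraries. Its relative change was 4.74 ± 0.67 (limma, adjusted p = 0.0018). RP11-298I3.3 too entered through treated libraries alone, which limits its p-value in the same way. In these pairs the member rose several log2 units while the ratios of the coding genes lay between -1.15 and 0.38.

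CTD-2033D15.2 lies in an intron of THBS1, the gene of the matrix glycoprotein thrombospondin 1. It had 78, 110 and 150 counts in Hep3B, 15, 63 and 81 in Huh7 and 6, 3 and 4 in SNU449. THBS1 had 706, 649 and 680 CPM in Hep3B and 247, 311 and 886 CPM in Huh7, so both were high in Huh7 at 500 nM. The member's change relative to THBS1 was 2.36 ± 0.33 (limma, adjusted p = 0.0018). RP11-331F4.5 lies across introns and exons of BCAR1, which encodes an adaptor at focal adhesions, and had 20, 107 and 275 counts in Hep3B and 28, 29 and 49 in Huh7. BCAR1 had 101, 109 and 84.1 CPM in Hep3B and 154, 107 and 61.5 CPM in Huh7, and the relative change was 3.61 ± 0.80 (limma, adjusted p = 0.0083).

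RP11-104N10.2 and CTD-2574D22.4 need care because each lies wholly or almost wholly on annotated exons and has no strand in the annotation. RP11-104N10.2 lies on exons of SPG7, which encodes a mitochondrial protease, and had a relative change of 0.90 ± 0.36 that did not pass the limma test (adjusted p = 0.071). CTD-2574D22.4 lies on exons of KCTD13 and had a relative change of 1.42 ± 0.45 (limma, adjusted p = 0.033).

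**Figure D4:**
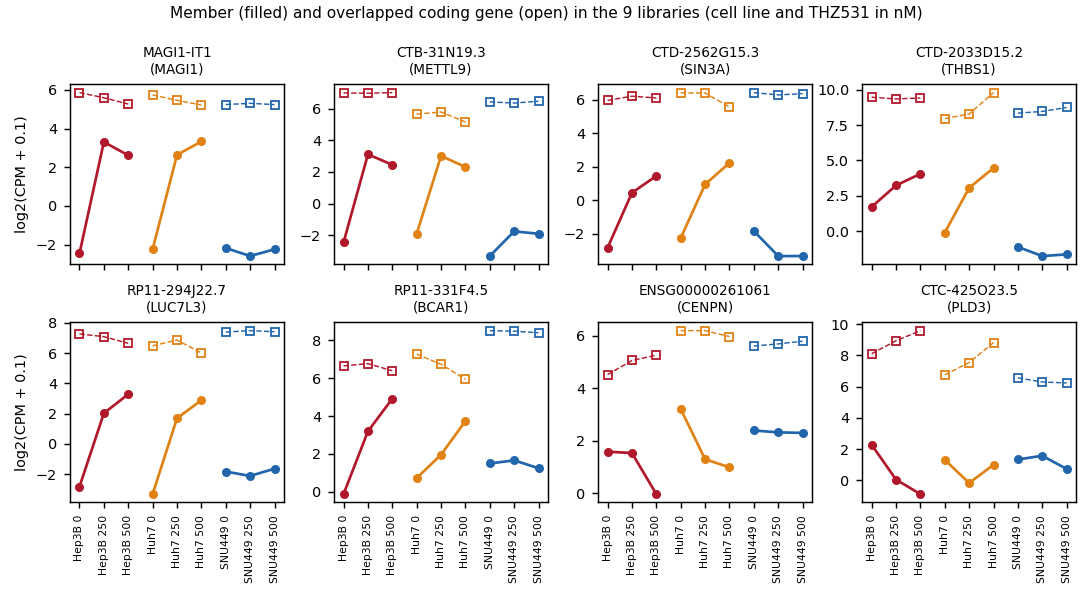
Level as log2(CPM + 0.1) (vertical axis) of 8 members (filled points) and their coding genes (open squares) in the 9 libraries (horizontal axis: cell line and THZ531 in nM). The first 6 members stand higher in the treated Hep3B and Huh7 libraries than in their controls, and ENSG00000261061 and CTC-425O23.5 do not. In SNU449 CTB-31N19.3 and CTD-2562G15.3 move on 0 to 3 counts; CPM is not per length, so levels of a member and its gene are not compared.

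By contrast 5 members were lower relative to their coding gene. CTC-425O23.5, a TEC gene in PLD3, which encodes a lysosomal exonuclease, had 116, 11 and 4 counts in Hep3B, 43, 6 and 7 in Huh7 and 40, 44 and 28 in SNU449. PLD3 had 275, 490 and 767 CPM in Hep3B and 107, 186 and 452 CPM in Huh7, so member and coding gene moved apart, with a relative change of -3.04 ± 0.50 (limma, adjusted p = 0.0028). ENSG00000261061, in an intron near the end of the centromere protein gene CENPN, had 71, 33 and 8 counts in Hep3B and 165, 18 and 7 in Huh7, and its relative change was -1.69 ± 0.48 (adjusted p = 0.022). RP11-135F9.3, near the end of UHRF1BP1L, had 117, 33 and 8 counts in Hep3B and 202, 38 and 6 in Huh7, and its relative change was -1.27 ± 0.45 (adjusted p = 0.047).

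RP11-196G18.22 shows why both values are needed. This sense overlapping gene rose to 285 and 249 counts at 250 and 500 nM in Hep3B, against 67 in its control, and to 133 and 161 in Huh7, against 36. Its coding gene by position, the histone gene HIST2H2BE, had 1.47, 242 and 156 CPM in Hep3B and 10.3, 355 and 634 CPM in Huh7, a mean log2 ratio of 6.21. The member was therefore higher on its own and lower relative to HIST2H2BE, by -2.78 ± 0.33 (limma, adjusted p = 0.0014).

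The place of a member along its coding gene went with the size of its relative change. The place is the midpoint of the member as a percent of the coding gene's length, counted from the start of that gene, and it could be set for 111 tested pairs. In the 28 members up to 25% of the length, the median relative change was 2.87 on the log2 scale, with 22 higher and 1 lower by the limma test. In the 60 members between 25 and 75% it was 0.74, with 22 higher and 1 lower. In the 23 members beyond 75% it was 0.00, with 4 higher and 3 lower.

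The Spearman rho of place and relative change was -0.515 over the 111 pairs, -0.519 in Hep3B, -0.482 in Huh7 and 0.253 in SNU449. In single libraries it was -0.459 and -0.534 in Hep3B at 250 and 500 nM, -0.409 and -0.521 in Huh7, and 0.212 and 0.249 in SNU449. These correlations are descriptions across genes, and the ratios within a line share their control. Among TEC members alone the rho was -0.648 (n = 40) and among sense intronic members -0.457 (n = 65). The ratio of the coding genes themselves had a rho of -0.018 with the place of the member. Reads of unspliced RNA of the coding gene cannot be told apart from those of the member, and the source of the pattern was not tested.

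The choice of members moves with this pattern, and its part was not tested further. Of the 28 members nearest the start, 11 had entered through treated hepatocyte-like libraries alone, against 10 of the 60 in the middle and 0 of the 23 near the end. With only the 62 members that had at least 10 counts in both controls, the medians were 1.12 (n = 8), 0.30 (n = 35) and -0.01 (n = 19), and the rho was -0.308. With only the 91 members that overlap no exon, the rho was -0.520. Distance in kb from the start, in place of percent, gave a rho of -0.277, with a median relative change of 2.23 for the 32 members within 10 kb of the start and 0.40 for the 29 at 50 kb or more. Other noncoding genes of the table that overlap a coding gene showed the same sign, with a rho of -0.390 (n = 158), so it was not particular to these 3 types. The limits of 25 and 75% were chosen after the counts were available.

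**Figure D5:**
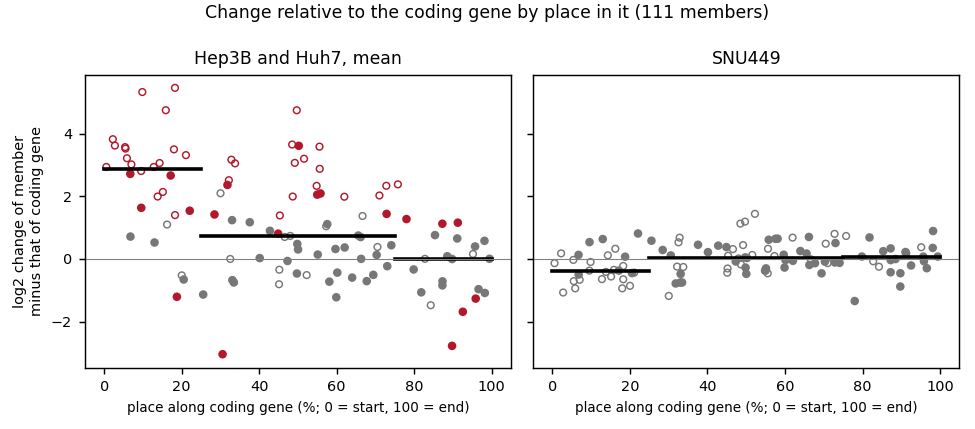
Change of the member minus that of its coding gene (vertical axis, log2) against the place of the member along the gene (horizontal axis, percent), as the mean of Hep3B and Huh7 on the left and in SNU449 on the right; red passes the limma test, open points have fewer than 10 counts in a Hep3B or Huh7 control, and black bars are medians. Medians are 2.87, 0.74 and 0.00 from start to end on the left.

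In sequence, 223 members could be matched to a GENCODE release 29 transcript, and 191 are annotated there with a single exon. AATAAA or ATTAAA, searched on the transcript's own strand only, was found in the last 50 bases of 131 of 223 members, or 58.74%, against 73.92% of all tested genes with a transcript and 77.09% of protein-coding ones. The share was 68.42% in sense intronic, 71.43% in sense overlapping and 48.21% in TEC members. Among members called higher in both lines 33 of 56 held one, and among those called lower in either line 9 of 14 did. The median transcript length was 935 bases for sense intronic, 2930 for sense overlapping and 2015 for TEC members. A run of 12 or more A was present in 16.14% of members and 16.45% of all tested genes. The ends are those of the annotation, and the ends of the RNA in these cells were not measured.

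The genes of the nuclear RNA exosome and its adaptors, which remove short nuclear RNAs, were followed as a list of 22. None was called at either dose over the 3 lines or in SNU449. In Hep3B 3 of the 22 were lower, where 6.72% of all tested genes were. These were MPHOSPH6 (-1.62 ± 0.33, adjusted p = 0.0099), EXOSC7 (-1.11 ± 0.32, adjusted p = 0.035) and EXOSC3 (-1.14 ± 0.31, adjusted p = 0.031), all by edgeR. In Huh7 2 were lower and 1 higher, where 6.04% and 13.3% of all tested genes were. EXOSC3 was among the lower ones there (-1.60 ± 0.31, adjusted p = 0.0066), and PABPN1 was the higher one (1.63 ± 0.44, adjusted p = 0.025, edgeR). EXOSC3 is a core subunit of the exosome and PABPN1 the nuclear poly(A)-binding protein. The median log2 change of the list was -0.30 in Hep3B and -0.07 in Huh7, where that of all tested genes was -0.03 in both.

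The 3 protein genes of the U1 snRNP, the splicing particle that also holds back early polyadenylation, were not called at either dose over the 3 lines. In Hep3B SNRPC was higher (1.21 ± 0.35, adjusted p = 0.035) and in Huh7 SNRNP70 was (1.23 ± 0.37, adjusted p = 0.040, edgeR). Of all tested genes, 9.82% were higher in Hep3B and 13.3% in Huh7. The part of either list in the members' changes was not tested.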

How the data were processed

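RNA sequencing counts of 9 libraries were used. The deposited values are raw counts per gene, made by the authors with HISAT2 and HTSeq on GRCh38 per the submitters' processing notes; the sources used here do not give versions, annotation release, strand setting or overlap mode. Counts were whole numbers, and all columns of the table belong to these libraries.

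Genes past filterByExpr on dose (15479 of 32990) were scaled with TMM and fitted in edgeR 4.0.16 (R 4.3.3), two-sided, with Benjamini-Hochberg adjustment over all of them. The dose fit held terms for cell line and dose (4 residual degrees of freedom). A second fit gave every line its own level and its own treated effect (3 residual degrees of freedom). Each line has 1 control, whose own deviation is not in the standard errors of that fit. The same holds for the fit of pairs below, which has the same terms. Standard errors printed with edgeR values are the size of the log2 change divided by the square root of the test's F statistic. Those printed with limma values come from its fit. Libraries of a line deviated together (r from 0.797 to 0.961), so the cell line served as the block. Comparisons within a line share its control. Pairs were tested with limma 3.58.1 on the log2 ratio of the noncoding to the coding gene (prior count 2, trend on mean level), with adjustment over 312 pairs. Overlap was taken from the table's coordinates, and strand, exons and transcript ends from GENCODE release 29. The scripts were tested on simulated data.

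Members and lists were chosen with earlier results of these data known. Named members are, in each type, the 4 most abundant and up to 5 highest and 3 lowest mean ratios with at least 10 counts in both Hep3B and Huh7 controls and 1 sign in all 4 treated libraries; and, over all types, the 4 with most counts among those with at most 3 in both controls; the 4 highest and 4 lowest past the test relative to a coding gene with at least 10 counts in every library; and the 4 smallest p in SNU449. The rule gave 39 members; a few values and 1 sequence are not reported here. Alternatives were other scalings, filters, priors, overlap rules and fits, DESeq2 1.42.0, no mitochondrial genes, and leaving out each library.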

Additional observations from a re-analysis of the deposited data

Results flagged for a closer look

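The response of Hep3B and Huh7 minus that of SNU449 was tested for each member with the edgeR quasi-likelihood test, and 13 of 231 members passed after Benjamini-Hochberg adjustment, 11 higher and 2 lower, where 2.55% and 0.252% of all tested genes did. None of the 13 is a sense intronic gene. Values below are log2 differences of fitted responses. A member with 0 counts in a library has a fitted value that depends on the prior count.

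RP11-893F2.18 differed by 6.24 (adjusted p = 0.0197), RP11-298I3.3 by 5.63 (0.0403) and RP11-338K17.5 by 4.34 (0.0432). RP11-893F2.18, a TEC gene whose place touches XYLT2 on the other strand, had 2, 153 and 70 counts in Hep3B, 6, 65 and 57 in Huh7 and 6, 5 and 5 in SNU449 at 0, 250 and 500 nM. RP11-338K17.5, in an intron of the transcription factor subunit gene GTF2H3, had 4, 32 and 16 counts in Hep3B, 3, 20 and 9 in Huh7 and 8, 3 and 8 in SNU449. Its counts are low in every library. RP11-893F2.18, RP11-298I3.3 and RP11-338K17.5 entered the set through treated Hep3B or Huh7 libraries alone, so their p-values rest on the counts that selected them.

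RP11-20I23.2 differed by 4.23 (adjusted p = 0.0285), RP11-178H8.7 by 3.97 (0.028), CTC-351M12.1 by 3.22 (0.0486), AP000892.6 by 3.11 (0.0355) and RP11-196G18.22 by 2.94 (0.0418). RP11-20I23.2 lies in ATP6V0C, which had 0 to 5 counts in every library, and how reads were divided between both was not tested. RP11-574K11.24 differed by 2.72 (adjusted p = 0.0277), CTD-2201E18.3 by 2.69 (0.0207) and ENSG00000259623 by 2.46 (0.0175). CTD-2201E18.3, a sense overlapping gene, had 34, 118 and 67 counts in Hep3B, 25, 21 and 15 in Huh7 and 146, 79 and 96 in SNU449, with log2 responses of 2.64 in Hep3B, 1.24 in Huh7 and -0.75 in SNU449.

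RP11-119F7.5 differed by -5.46 (adjusted p = 0.0441) and AC092066.1 by -1.88 (0.0486). AC092066.1, a TEC gene in CEACAM19, had 142, 34 and 20 counts in Hep3B, 381, 31 and 12 in Huh7 and 143, 126 and 173 in SNU449. CEACAM19 fell as well. Mean log2 ratios over the treated Hep3B and Huh7 libraries were -2.35 for CEACAM19 and -1.83 for the member. The relative change of 0.52 ± 0.53 did not pass the limma test (adjusted p = 0.44). SNU449 was treated for longer than the other lines per the protocol label, so line and time cannot be told apart in these differences. Without the Hep3B library at 250 nM or that at 500 nM, no member passed.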

How the results depend on the processing

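Counts of members called at 500 nM, 40 as reported, became 70 with total-count scaling (51 higher, 19 lower), 83 with every gene with a count, 0 with no replicate block (no cell line term), 7 with only the 6 libraries compared, 2 without Hep3B, 2 without Huh7 and 121 without SNU449. Leaving out 1 library gave 4 to 125, with 4 without Huh7 at 500 nM, 5 without the Hep3B control or Hep3B at 500 nM, and 125 without the SNU449 control. At 250 nM, 12 as reported, the same settings gave 23, 55, 0, 1, 0, 3 and 93, and leaving out 1 library gave 3 to 108. Between doses, 0 as reported, the 6 libraries gave 2, and leaving out 1 library 0 to 2.

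Within Hep3B, 79 as reported, leaving out 1 library gave 0 to 113, with 0 without its 250 nM and 5 without its 500 nM library. Within Huh7, 82 as reported, it gave 43 to 113, with 43 and 46 without the Hep3B library at 250 and 500 nM. The difference between lines, 13 as reported, was 6 with total-count scaling, 6 with DESeq2 size factors, 50 with every gene, 31 with DESeq2 and 0 to 61 without 1 library. Pairs, 55 as reported, were 35 without SNU449 at 250 nM, the lowest, and at most 66; 63 with the coding gene on either strand and 42 with no exon overlap, both chosen after seeing the data. A minimum of 20 counts left 140 of 240 members. No called result reversed under the settings run. Of values with no call, the mean ratio of RP11-159D12.8 was -0.13 with total-count scaling (0.48 as reported), and that of CTD-3128G10.7 was 0.17 without Hep3B at 250 nM and 0.09 without Huh7 at 250 nM (-0.10 as reported). The causes were not tested.

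Over the named members and settings, the value relative to the coding gene kept its side of the test in 186 cases and lost the call in 13; these were 319 and 59 within Hep3B, 341 and 23 within Huh7, 171 and 85 at 500 nM, 58 and 19 at 250 nM, and 59 and 25 for the difference between lines. Mean ratios moved by more than their SD in 12 cases and did not in 261. Low counts, few libraries and 1 control per line limit every call.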

Other observations

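Another 18 members overlap a coding gene only on the opposite strand. Of these, 5 entered the set through treated Hep3B or Huh7 libraries alone and 6 had at least 10 counts in both controls. The median log2 ratio of the 18 over the 4 treated Hep3B and Huh7 libraries was 2.25, that of the 6 was 0.49, and that of the coding genes facing the 18 was -0.19. The member was above 0 and the facing gene below 0 in 10 of 18. RP11-667F14.1 had a mean ratio of 6.18, facing TES, which encodes an actin-linked adhesion protein, at -0.35. RP11-278J6.4 had 3.57, facing the glucocorticoid receptor gene NR3C1 at -0.79, and RP11-159D12.6 had 1.85, facing the splicing factor gene SRSF1 at -1.03. Against this, CTB-50L17.8 had -1.71, facing UBXN6 at 0.68. These values were not tested against the facing gene.

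Among 87 members with a strand and no overlapped coding gene, 35 begin within 5000 bases after the end of a coding gene on the same strand. Their median log2 ratio was -0.61, that of the coding genes before them was -0.16, and the Spearman rho between both was 0.719 across these genes. In the other 52 the median was 0.92 and the rho 0.171. Control counts differ between both groups: 6 of the 35 and 22 of the 52 had fewer than 10 counts in a Hep3B or Huh7 control, and with at least 10 in both the medians were -0.66 (n = 29) and -0.17 (n = 30). RP11-447D11.3, described above as lower in both lines, begins 134 bases after the end of KLHL18, whose own mean ratio was 0.02. RP1-228H13.5 begins 601 bases after ZFP69B, at -2.12 for the member and -0.66 for the coding gene. ENSG00000259623 begins 2098 bases after KLHL11, at 2.44 for the member and 2.79 for the coding gene.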
